A study of Drosophila melanogaster with 2 samples.

Results

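Ada2b peaks at divergent gene pairs are binding sites whose summit lies between or beside the starts of genes that run away from each other on opposite strands. They were taken from the conservative list of reproducible peaks of an anti-GFP chromatin immunoprecipitation (ChIP-seq) in Drosophila melanogaster embryos. A peak was a member when its summit, the base of highest enrichment, lay within 500 bp of annotated transcription start sites of at least 2 protein-coding genes on opposite strands. There were 649 members among 4796 peaks on arms of the main chromosomes. The rule used positions only, not the strength of a peak. The embryos were 0 to 18 h old and carried an insertion that expresses an Ada2b-eGFP fusion. Whether untagged Ada2b was present as well is not given in the labels. Both libraries belonged to the same group, as biological replicates 1 and 2, so no condition was compared. Whole embryos were used, and a site bound in fewer cells cannot be told apart from one bound less in each cell.

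Ada2b is an adaptor subunit of SAGA, a coactivator complex whose Gcn5 subunit acetylates histone H3 and whose deubiquitinase removes ubiquitin from histone H2B. SAGA is recruited to promoters by activators and contacts the TATA-binding protein. In the compact fly genome many neighbouring genes are arranged head to head, with a short stretch of DNA between their starts that serves both promoters. Such genes are often housekeeping genes, and their promoters tend to hold the DNA replication-related element (DRE, TATCGATA), which the factor Dref binds, and Motif 1, Motif 6 and Motif 7 of the core promoter rather than a TATA box.

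Stretches between the starts are shown for the strongest head-to-head members found in both replicates. Where the starts were over 300 bp apart, as at mRpS23/CenG1A and CG5611/Mtl, only the part within 150 bp of the summit was printed. The Chro/Ssl1 summit lies outside its stretch, inside Chro. All are dm6 sequence of the plus strand, written 5′ to 3′ and read from the NCBI reference, and bases inside annotated exons were left out. Capitals mark matches to the DRE, its core ATCGAT, the Motif 1 core GGTCACAC, Motif 6, Motif 7, the E-box CAGCTG and GAGAG, on either strand. The locations, in the order of the lines, are chr3R:29736746-29736964, chr2L:13835309-13835563, chr3R:27636061-27636317, chr3L:5139396-5139618, chr3R:15229409-15229664 and chr3L:22878985-22879088. Of the printed stretches, CG5611/Mtl alone held a match, and bases not printed are not covered by this.
CG7601/CIA30: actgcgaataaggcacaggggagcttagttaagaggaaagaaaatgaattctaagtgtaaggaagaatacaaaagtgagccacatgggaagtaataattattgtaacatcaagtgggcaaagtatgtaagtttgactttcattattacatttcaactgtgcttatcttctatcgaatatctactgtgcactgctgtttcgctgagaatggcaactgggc
mRpS23/CenG1A: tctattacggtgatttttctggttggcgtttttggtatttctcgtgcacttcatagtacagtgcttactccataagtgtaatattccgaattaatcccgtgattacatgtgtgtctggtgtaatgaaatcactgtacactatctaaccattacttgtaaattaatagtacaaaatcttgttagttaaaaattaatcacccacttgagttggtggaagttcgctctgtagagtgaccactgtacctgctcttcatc
CG5611/Mtl: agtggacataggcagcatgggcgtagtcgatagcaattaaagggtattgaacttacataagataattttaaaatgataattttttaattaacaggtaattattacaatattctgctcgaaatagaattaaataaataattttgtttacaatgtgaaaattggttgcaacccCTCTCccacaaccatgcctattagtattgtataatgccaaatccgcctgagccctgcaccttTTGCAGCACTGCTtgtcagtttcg
Tcs5/CHMP2B: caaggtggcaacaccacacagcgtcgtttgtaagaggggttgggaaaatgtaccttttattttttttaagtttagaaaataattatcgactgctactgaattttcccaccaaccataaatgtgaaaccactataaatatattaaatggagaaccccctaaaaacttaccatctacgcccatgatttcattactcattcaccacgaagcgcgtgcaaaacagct
Art3/mRpS10: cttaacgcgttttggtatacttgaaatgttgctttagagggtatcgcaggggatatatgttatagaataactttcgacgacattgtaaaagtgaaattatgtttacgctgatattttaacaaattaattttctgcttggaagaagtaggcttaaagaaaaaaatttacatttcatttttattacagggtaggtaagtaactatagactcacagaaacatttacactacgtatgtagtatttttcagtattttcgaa
Chro/Ssl1: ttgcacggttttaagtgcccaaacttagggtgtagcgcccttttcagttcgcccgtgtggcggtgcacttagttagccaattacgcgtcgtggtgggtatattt

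A further set shows what the motifs look like in a bound stretch. For Motif 7, the E-box, the DRE and the Motif 1 core in turn, it gives the strongest other member with a spacing of up to 300 bp, no exon between its starts and a match there. The locations are chr3L:9426759-9427009, chr2L:8376798-8377034, chr2L:17481030-17481230 and chr3L:12533725-12533995. In Atat/Shc and in fws/Lamtor3 a DRE core lies near each end of the stretch, and in CG13390/CG17294 the E-box lies beside the CG17294 start.
Atat/Shc: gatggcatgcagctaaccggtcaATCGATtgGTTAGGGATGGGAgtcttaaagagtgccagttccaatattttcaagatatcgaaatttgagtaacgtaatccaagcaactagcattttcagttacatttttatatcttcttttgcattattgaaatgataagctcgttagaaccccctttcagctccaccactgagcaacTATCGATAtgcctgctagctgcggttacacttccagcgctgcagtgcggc
CG13390/CG17294: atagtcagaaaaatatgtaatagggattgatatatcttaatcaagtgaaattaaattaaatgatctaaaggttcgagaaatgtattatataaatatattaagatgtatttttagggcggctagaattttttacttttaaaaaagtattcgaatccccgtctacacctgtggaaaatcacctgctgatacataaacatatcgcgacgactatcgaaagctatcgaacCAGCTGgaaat
fws/Lamtor3: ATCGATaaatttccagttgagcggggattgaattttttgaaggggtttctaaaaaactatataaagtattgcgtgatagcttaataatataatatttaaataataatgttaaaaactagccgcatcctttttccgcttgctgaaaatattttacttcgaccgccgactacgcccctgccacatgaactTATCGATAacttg
Tsf2/CG34242: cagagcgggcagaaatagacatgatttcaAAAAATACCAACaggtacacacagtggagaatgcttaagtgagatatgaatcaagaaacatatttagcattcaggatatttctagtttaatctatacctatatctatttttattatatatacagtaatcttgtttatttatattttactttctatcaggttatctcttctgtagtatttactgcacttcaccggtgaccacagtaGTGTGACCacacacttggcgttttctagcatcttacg

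Divergent pairs made up 33.1% of the promoter peaks, that is, of the 1959 peaks within 500 bp of any protein-coding start (649 of 1959, 95% Clopper-Pearson interval 31.0 to 35.3). The list of replicate 1 alone gave 33.4% and that of replicate 2 gave 36.0%, with a mean of 34.7 ± 1.89% (SD, n = 2). Intervals here and below cover counting error only. Of the members, 637 were head to head, with the minus-strand start to the left of the plus-strand start, and at the other 12 the nearest starts overlapped by 2 to 234 bp. The members fell on 625 different gene pairs, since 23 pairs carried more than 1 member peak. Most members, 618 of 649, had exactly 2 genes in reach. One had 10, the pre-mod(mdg4) transcription units, which are annotated as separate genes and supply alternative ends to the trans-spliced transcripts of the insulator gene mod(mdg4).

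Weak second peaks were concentrated in those shared pairs. Signal, the enrichment value that the authors' peak caller gave each peak, was below 30 at 16 members, and 15 of the 16 lay in a pair with another member peak. At E(spl)mdelta-HLH, a Notch target gene of the basic helix-loop-helix family that faces CG43116, the members had signals of 55.9 and 2.31. Both overlap the same candidate peak in each replicate, with signals of 32.8 in replicate 1 and 28.6 in replicate 2, so their replicate values are not independent.

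The strongest member stood between CG7601 and CIA30, which encodes an assembly factor of respiratory complex I. Its signal was 1594 in the list made from both replicates, 848 in replicate 1 and 798 in replicate 2, and its summit lay 8 bp from the midpoint of a 220 bp stretch. Signals are not normalized between lists, so a value in one list is not set against a value in another. The pair mRpS23/CenG1A followed with 1360, joining a mitochondrial ribosomal protein gene to an Arf GTPase-activating protein gene. Its replicate signals were 727 and 637, and its starts were 492 bp apart.

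CG5611/Mtl had a signal of 1293, with 685 in replicate 1 and 609 in replicate 2. Mtl encodes a GTPase of the Rac family. Tcs5/CHMP2B had 1281, with 706 and 578 in the replicates, and CHMP2B is a subunit of the membrane-scission complex ESCRT-III. Art3/mRpS10, an arginine methyltransferase gene facing another mitochondrial ribosomal protein gene, had 1269, with 690 and 582. Both replicates placed all of these pairs in the top 1% of the peaks of the conservative list when those were ranked by each replicate's own signal.

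Chro/Ssl1 had a signal of 1045, with 642 in replicate 1 and 405 in replicate 2. Chromator is a chromodomain protein of decondensed chromatin and of the spindle, and Ssl1 is a subunit of the general transcription factor TFIIH. Here the summit was not between the starts, which are 105 bp apart, but 81 bp inside Chro. At brm/Arl1 the ATPase gene of the SWI/SNF remodeller faces a gene for a Golgi GTPase, and the signal was 837, with 488 and 350 in the replicates. The summit stood 8 bp from the midpoint of 266 bp. CG1275/Elp5, with a subunit gene of the Elongator complex that modifies tRNA, had 840, with 460 and 390.

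Among the 20 strongest members found in both replicate lists, signals ran from 659 to 1594. In replicate 1 they ran from 343 to 848 and in replicate 2 from 277 to 798. The summit lay between the starts at 15 of the 20 and within 10 bp of the midpoint at 9. The spacing was over 200 and up to 300 bp at 10 of them, among them Mkk4/SLIRP2 (a kinase gene of the JNK pathway, 775), fws/Lamtor3 (a Golgi tether subunit gene and a Ragulator subunit gene, 715) and Mppe/pds5 (with a cohesin regulator gene, 668).

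Summits tended to sit between the starts and in the middle of pairs of a certain width. The head-to-head members had a median spacing of 286 bp, with quartiles of 222 and 393 bp and a range of 2 to 864 bp. All 2240 annotated head-to-head pairs, taken by the most 5′ starts and up to 1000 bp apart, had a median of 300 bp. The summit lay between the starts at 525 of 637 (82.4%, interval 79.2 to 85.3), and at 80.8% and 84.7% in the lists of replicates 1 and 2 (82.8 ± 2.79%, SD, n = 2). The nearer start was a median of 94 bp away (quartiles 59 and 127) and the farther one 198 bp. The nearer start was on the plus strand at 302 of the 637, and both starts were equally far at 3. Replicates placed the summits closely together, with a median gap of 21 bp between their own candidate summits over 642 members.

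The place of the summit changed with the spacing. With starts over 200 and up to 300 bp apart the summit was between them at 196 of 223 members (87.9%, interval 82.9 to 91.9), its median distance was 34.5 bp from the midpoint and 93 bp from the nearer start, and 64.1% of summits were within 50 bp of the midpoint, a span that makes up 39.9% of the median stretch. From there to 500 bp the summit was a median of 76.5 bp off the midpoint and 114 bp from the nearer start. Beyond 500 bp it was 133.5 bp off the midpoint and 158 bp from the nearer start, and 16.4% were within 50 bp of the midpoint, a span of 18.3% of the median stretch. The median distance to the nearer start thus differed less between these classes than the distance to the midpoint. In the widest class the rule itself allows only summits within 500 bp of both starts.

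Fewer summits lay between closely spaced starts, where the stretch leaves little room for one. Up to 100 bp of spacing the summit was between the starts at 20 of 67 members (29.9%, interval 19.3 to 42.3), and at 100 to 200 bp at 41 of 65 (63.1%, interval 50.2 to 74.7). Of the 112 summits outside the starts, 67 were inside the minus-strand gene and 45 inside the plus-strand gene, a median of 61 bp past the start, and the median spacing of their pairs was 119 bp. The starts of dpa and didum, an Mcm4 replication helicase gene and a myosin V gene, are 2 bp apart, and the summit was 127 bp inside dpa. Its signal was 178, with 103 in replicate 1 and 73.1 in replicate 2. At SerRS/CG17260, a seryl-tRNA synthetase gene and its neighbour 8 bp apart, the summit was 20 bp inside CG17260 and the signal was 251, with 158 and 94.3 in the replicates. At the other extreme, mRNA-cap/CG32599 has 864 bp between the starts and had a signal of 88.1, with 44.1 and 42.8 in the replicates.

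**Figure D1:**
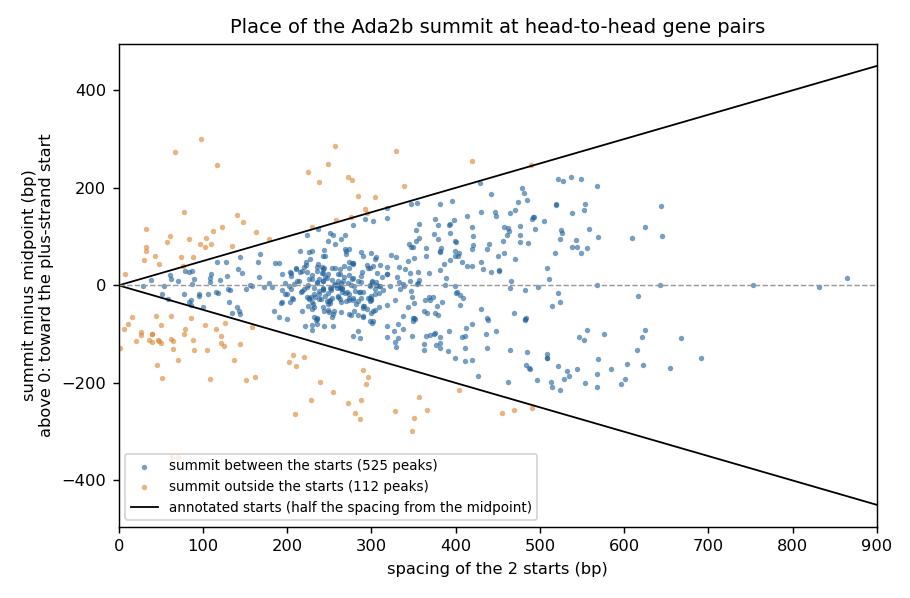
Each point is a head-to-head member; the horizontal axis is the spacing of its starts in bp and the vertical axis the summit position minus the midpoint in bp, with black lines where the starts lie. The 525 summits between the lines gather near the midpoint at 200 to 300 bp and spread to both sides of it in wider pairs, and the 112 summits outside lie mostly at narrow pairs.

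At promoters with a start on 1 strand only (1310 peaks), the nearest start was a median of 171 bp away and the summit a median of 143 bp upstream of it. For members that distance was a median of 94 bp in the list of replicate 1 and 97 bp in that of replicate 2. A summit between close starts cannot be far from both, and how much of the difference that sets was not tested.

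Not every divergent pair was bound. Ensembl release 115 annotates 2240 neighbouring head-to-head pairs of protein-coding genes whose most 5′ starts are 1 to 1000 bp apart, holding 4480 of 13945 protein-coding genes (32.1%). A summit lay within 500 bp of both starts at 559 pairs, 25.0% of the 2240 (interval 23.2 to 26.8). Each replicate list alone gave 444 pairs (19.8%). Of the 9465 genes outside such pairs, 888 (9.38%, interval 8.80 to 9.99) had a summit within 500 bp of their most 5′ start. The region scored at a pair is shorter than the 500 bp on each side scored at a single gene. A pair has a start on each strand, so a share per pair is not a share per gene. The genes outside pairs also hold most of the cuticle protein and the odorant and gustatory receptor genes, none with a promoter peak.

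Binding differed with the width of the pair. Pairs with starts over 200 and up to 300 bp apart were bound at 193 of 467 (41.3%, interval 36.8 to 45.9), against 58 of 307 at 100 to 200 bp (18.9%, interval 14.7 to 23.7), 78 of 348 at 1 to 100 bp (22.4%, interval 18.1 to 27.2) and 179 of 568 at 300 to 500 bp (31.5%, interval 27.7 to 35.5). In the replicate lists the class of 200 to 300 bp had 33.9 ± 1.36% (SD, n = 2) and the class of 100 to 200 bp had 15.0 ± 0.921%, so the difference was far larger than the spread between replicates. In steps of 50 bp the share went from 16.7% at 150 to 200 bp to 43.9% at 200 to 250 bp. The classes up to 200 bp also count 42 pairs of repeated histone gene copies, spaced 26 to 189 bp, none of them bound. These copies lower the shares of the narrow classes, and shares without them were not computed. The region within 500 bp of both starts is 1 to 500 bp long in pairs over 500 bp wide and longer in all narrower ones, so the low share of that widest class (51 of 550, 9.27%) is limited by the rule.

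Counting only summits between the starts changed the order of the classes. A summit lay there at 5.17% of pairs 1 to 100 bp apart, 11.4% at 100 to 200 bp, 37.3% at 200 to 300 bp (174 of 467), 29.8% at 300 to 500 bp and 22.4% beyond 500 bp. The stretch scored grows with the spacing, so these shares do not cover equal lengths. Of the 9465 genes outside pairs, 593 had a summit in the 300 bp upstream of their start (6.27%). That share is per gene, while a stretch between paired starts lies upstream of both genes, so the values are not equal measures.

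**Figure D2:**
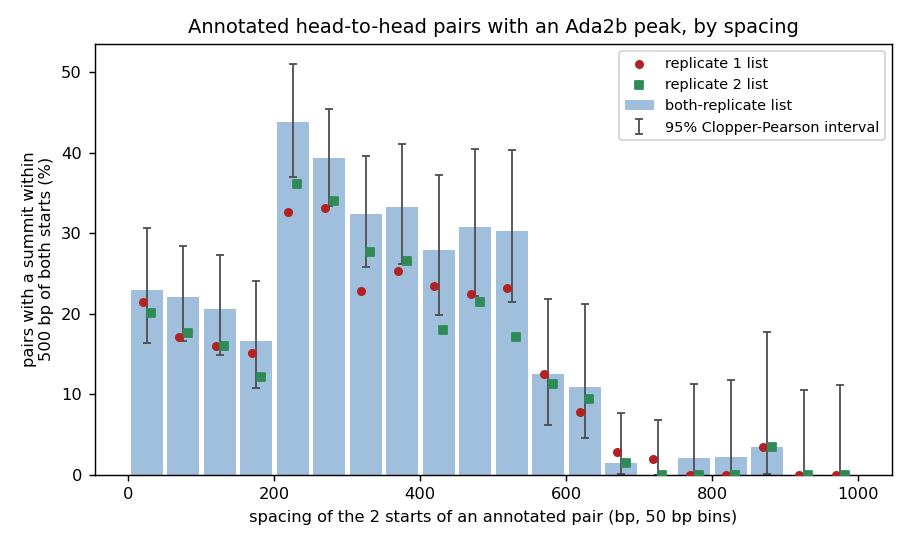
Bars give the percent of annotated head-to-head pairs, in 50 bp bins of spacing, with a summit within 500 bp of both starts; lines are 95% Clopper-Pearson intervals, and circles and squares are the lists of replicates 1 and 2. The share is 16.7% at 150 to 200 bp and 43.9% at 200 to 250 bp, and both replicates show the step. Bins up to 200 bp include 42 unbound pairs of repeated histone gene copies, which lower their shares.

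Among the chromosome arms, pairs on X were bound least often of the large arms. A peak was found at 59 of 349 X pairs (16.9%, interval 13.1 to 21.3), while the arms of the autosomes 2 and 3 ranged from 22.7% to 28.1%. Of the promoter peaks on X, 67 of 308 were members (21.8%), against 31.6% to 37.8% on those arms. Chromosome 4 has 8 such pairs and no member among its 4 promoter peaks, which is too few to compare.

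Members were somewhat stronger than other promoter peaks in the median. The median signal was 105 at members (quartiles 69.1 and 176), 91.0 at promoter peaks with starts on 1 strand and 81.3 at the 2837 peaks away from starts. As a percentile of all peaks in the list, the medians were 61.3, 53.3 and 46.3. Members exceeded the one-strand promoter peaks by 8.0 percentile points in this list and by 5.65 ± 0.634 points (SD, n = 2) in the lists of the replicates. Members were above the one-strand peaks at the upper quartile of the percentile as well, with 82.5 and 78.4, and the values were close at the 90th percentile, with 93.3 and 92.9.

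Signal was also read at equal distances to the nearest start. Among summits 51 to 100 bp from the nearest start, the median percentile was 61.9 at 224 members and 44.2 at 206 one-strand peaks, and the lists of both replicates had the same order, with 59.3 against 50.8 in replicate 1 and 54.7 against 42.1 in replicate 2. Among summits 0 to 50 bp from a start the medians were 45.3 and 35.2. At 100 to 150 bp they were 66.3 and 59.4, but 59.1 and 59.4 in replicate 1. At 150 to 200 bp they were 65.4 and 66.9, with the one-strand peaks above the members in both replicates too. At 200 to 300 bp, with only 21 members, they were 65.3 and 56.0, with 70.6 against 58.2 in replicate 1 and 64.7 against 63.6 in replicate 2. Whether the second start of a member accounts for the values near starts was not tested.

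**Figure D3:**
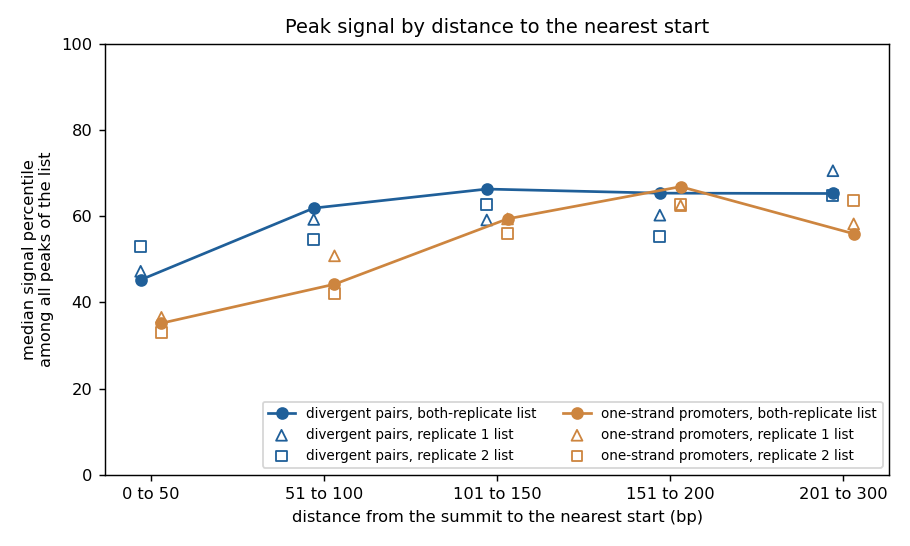
The vertical axis is the median signal percentile among all peaks of a list and the horizontal axis the distance in bp from the summit to the nearest start; filled circles are the list from both replicates, open triangles and squares the lists of replicates 1 and 2. Members lie above one-strand promoter peaks at 0 to 50 and 51 to 100 bp in all lists, below them at 150 to 200 bp, and above them again at 200 to 300 bp.

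Signal also differed with the spacing of the pair. The median percentile was 68.2 in members with starts 200 to 300 bp apart, 66.3 at 1 to 100 bp and 66.8 at 100 to 200 bp, then 56.2 at 300 to 500 bp and 46.6 beyond 500 bp. Each replicate's own signal, ranked over the same peaks, gave 63.8 and 72.2 at 200 to 300 bp and 43.1 and 48.9 beyond 500 bp. Across the 637 head-to-head members Spearman's rho between spacing and signal was -0.143, a weak relation over peaks of the same libraries. Just inside the limit of the rule, CG14968/ZnT63C, 500 bp from the farther start, had a signal of 346, above the 90th percentile of members (307). The members yem/Ctl2 and CG10663/CG33725, both at 497 bp, had 56.4 and 61.8. Just outside it, Nbr/Noc2 and beta4GalNAcTB/Cpsf100, each by 1 bp, had 85.5 and 61.6.

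A member was recovered in both single-replicate lists, by an overlap of at least 1 bp, at 404 of 649 (62.2%, interval 58.4 to 66.0), against 56.4% of the one-strand promoter peaks and 47.2% of the peaks away from starts. Replicate 1 recovered 483 members and replicate 2 recovered 478, and 92 were in neither list, having passed only when both replicates were used. Across 642 members with a candidate peak in each replicate, the signals of the replicates had a Spearman's rho of 0.833, which describes peaks and not samples.

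The 12 members with overlapping starts included some strong peaks. CG4741/Adck1 had a signal of 457, with 261 in replicate 1 and 193 in replicate 2, and starts that overlap by 141 bp. CG31808/Cyt-c-d, with the gene of a testis cytochrome c, had 409, with 244 and 163, and an overlap of 234 bp. The others were between 54.7 and 290.

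Shares above the background were found in several lists of genes for basic cell functions. In all, 1289 of 13945 protein-coding genes (9.24%) had a start within 500 bp of a member summit, and each list below is read against that share. Because genes of some lists are more often arranged in pairs, the share of the list's paired genes that were at a bound pair is given as well, against 25.0% over all pairs. Those shares have no interval here and mostly rest on small numbers of genes, so values above 25.0% can lie within counting error. Of 92 cytosolic ribosomal protein genes, 20 were at member peaks (21.7%, interval 13.8 to 31.6), and 19 of the 54 in pairs were at a bound pair (35.2%). RpL32, facing CG7943, had a signal of 327, with 174 and 155 in the replicates. Of 73 mitochondrial ribosomal protein genes, 17 were at member peaks (23.3%, interval 14.2 to 34.6) and only 3 more at one-strand peaks. For those, pairing was common (76.7% of the list), and 30.4% of the paired ones were bound.

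Translation and RNA processing were represented further. Aminoacyl-tRNA synthetase genes, which charge tRNAs, were at member peaks in 9 of 32 cases and at one-strand peaks in none, and 36.4% of the paired ones were bound. GluProRS, facing the clathrin adaptor gene AP-1sigma, was the strongest, with 338 and replicate signals of 173 and 167. Genes of tRNA and rRNA modification were at member peaks in 9 of 31 cases, but 80.6% of the list is in pairs and 28.0% of the paired genes were bound, close to the share over all pairs. Trmt6/Ent2, with a tRNA methyltransferase subunit gene, had 579, with 287 and 307. Splicing and RNA processing factors had 14 of 51, but 82.4% of that list is in pairs, and 33.3% of the paired genes were bound. Its strongest was U2af50, the large subunit gene of the 3′ splice site factor, with 302.

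Genes of vesicle coats, tethers and sorting had 22 of 86 at member peaks (25.6%, interval 16.8 to 36.1), and 40.7% of the paired ones were bound. Vps33B/Fur1 was the strongest, with 355, and replicate signals of 182 and 174. DNA repair genes had 10 of 31 (32.3%, interval 16.7 to 51.4), with 40.9% of the paired ones bound, led by mei-41, the fly ATR checkpoint kinase gene, with 300.9. Chromatin regulators had 10 of 39, with 10 of the 25 paired ones bound, led by Chro and brm, with the insulator gene Cp190 at 321. Genes of RNA polymerase II, TFIID and Mediator had 12 of 53, with 33.3% of the paired ones bound, led by MED27 with 280. Close to the background were DNA replication and cell cycle genes with 5 of 49, translation factors with 6 of 54, proteasome genes with 6 of 48, mitochondrial import and chaperone genes with 2 of 17, and the respiratory chain and ATP synthase genes with 12 of 91. The replication list is not complete, since dpa, named above at a member peak, is not counted in it. Nuclear pore genes had 5 of 22, ubiquitin enzymes 8 of 41 and Rab, Arf and Arl GTPases 6 of 42, all with intervals that include the background. Of the paired genes in these lists, 29.4%, 31.8% and 26.1% were bound. For replication, translation factors, proteasome and respiratory chain the shares of paired genes bound were 20.8%, 16.7%, 22.7% and 19.4%, all below the 25.0% over all pairs. Of the mitochondrial import and chaperone genes only 4 are in pairs, and 1 was bound.

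Genes of the SAGA and ATAC complexes, to which Ada2b and its paralog belong, were at member peaks in 5 of 29 cases (17.2%, interval 5.85 to 35.8), an interval that includes the background. Of the 18 in pairs 3 were at a bound pair (16.7%), below the share over all pairs. Gcn5, the acetyltransferase gene, faces ver, a telomere protein gene, and had a signal of 265, with 136 and 133 in the replicates. The SAGA core gene wda, facing the peroxisome gene Pex11c, had 176, with 89.3 and 88.1. The e(y)2, Ada3 and Sgf11 genes had 111, 74.0 and 46.8. Sgf11, whose product belongs to the deubiquitinase module, was in neither single-replicate list.

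Genes of the cuticle, of chemosensation and of early patterning had no member peak. None was at any of 93 cuticle protein genes, which allows a share of up to 3.23%, or at any of 119 odorant and gustatory receptor genes, which allows up to 2.52%. Of those lists 3 and 14 genes are in pairs, so few of them could have been at a member. None of 25 gap, pair-rule and Hox genes is in an annotated pair, and 2 of them had a one-strand peak. None of 14 heat shock protein genes was at a member peak, which allows up to 21.4%, while 4 had a one-strand peak. None of 16 neuronal and glial genes was at one either, which allows up to 18.8%, and 3 had a one-strand peak. Of 16 muscle genes, mbc, needed for myoblast fusion, was at a member peak, which it shares with Nup98-96, a nuclear pore gene. Germ line genes had 4 of 13 (interval 9.09 to 61.4%, which includes the background), with orb at 259, and 3 of the 6 in pairs were bound. Of the 4, piwi and nanos were not in the list of replicate 2. The 42 annotated pairs of histone genes, a group picked out after the values were seen, held no member peak. They are repeated copies on arm 2L, and how reads from repeats were treated is not given in the sources used here.

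**Figure D4:**
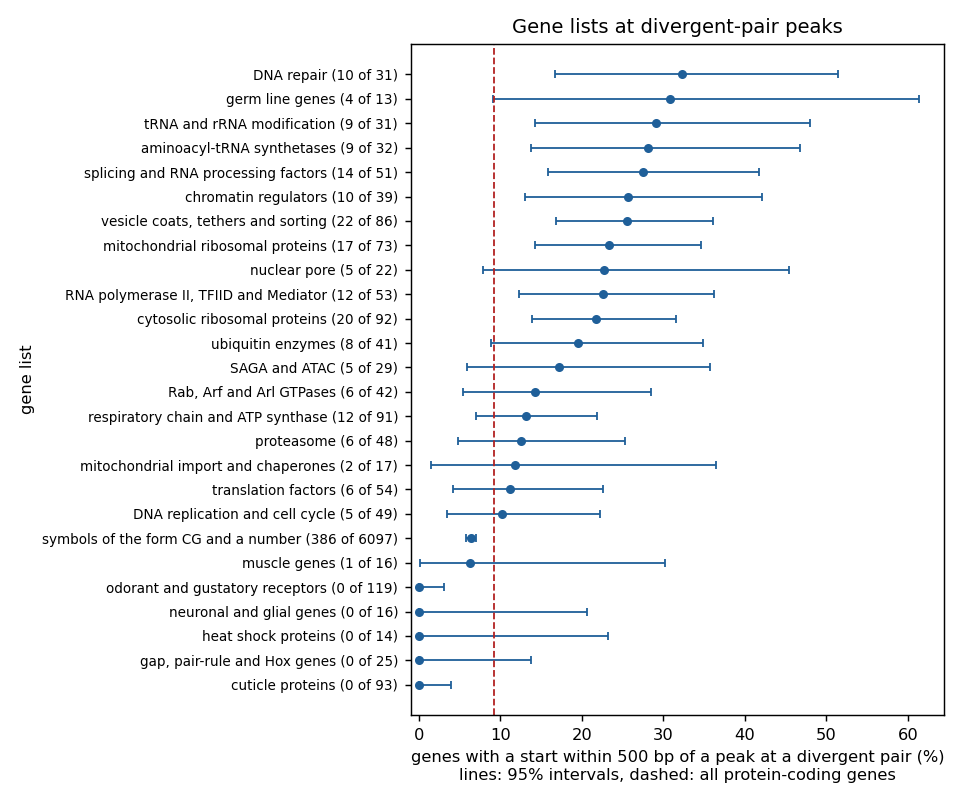
Points give the percent of each gene list with a start within 500 bp of a member summit, with 95% Clopper-Pearson intervals; the dashed line is the 9.24% of all protein-coding genes. DNA repair and vesicle genes, among others, lie to the right of the line with their whole interval, and cuticle and receptor genes to its left at 0. These shares are not adjusted for how often the genes of a list are in pairs.

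Both genes of a pair belonged to one of the lists at 16 members, and at least one did at 175. Besides brm/Arl1 and GluProRS/AP-1sigma these included RpS27/Nup37, with a signal of 210, and Dref/RpL13, with 103, which joins the gene of the DRE-binding factor to a ribosomal protein gene. At RPA1/Mcm2 both genes act in DNA replication, and the signal was 65.1. Genes known only by a CG number were less frequent, at 386 of 6097 (6.33%, interval 5.73 to 6.97), and 21.5% of the paired ones were bound. Noncoding genes had a start within 500 bp of the summit at 9 members (1.39%) and at 81 one-strand promoter peaks (6.18%).

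Motifs were searched from 150 bp before to 150 bp after each summit, on both strands. The nearest start was a median of 94 bp from the summit at head-to-head members and 171 bp at one-strand promoter peaks. Windows at one-strand peaks therefore reach a start less often. How much of the differences in motif shares that sets was not tested. Motif 7 was in 25.4% of members (165 of 649, interval 22.1 to 29.0), 9.01% of one-strand promoter peaks and 2.61% of peaks away from starts, and in 8.88% of windows around all 13945 most 5′ starts. The lists of the replicates gave 26.2 ± 0.695% at members and 9.18 ± 1.06% at one-strand peaks (SD, n = 2). The E-box CAGCTG was in 27.0% of members (interval 23.6 to 30.6), 16.6% of one-strand peaks and 18.1% of all starts. The DRE was in 16.2% of members (interval 13.4 to 19.2), 5.73% of one-strand peaks and 8.53% of all starts. GAGAG, the element of GAGA factor, went the other way, with 18.3% of members, 40.1% of one-strand peaks and 30.7% of all starts. In the replicate lists it was in 19.1 ± 1.19% and 41.1 ± 1.28%.

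A window at a pair holds promoters on both sides, so bound pairs were also set beside annotated pairs with no peak at either start, with windows at the midpoint. In pairs with starts over 300 bp apart, such a window does not reach the starts. Motif 7 was in 21.5% of 559 bound pairs (interval 18.1 to 25.1) and 9.45% of 1577 pairs with no peak (interval 8.05 to 11.0). Within the spacing of 200 to 300 bp it was in 33.2% of 193 bound pairs (interval 26.6 to 40.3) and 17.3% of 271 with no peak (interval 13.0 to 22.4). The DRE was in 16.3% of bound pairs and 13.4% of those with no peak, and the Motif 1 core was in 9.48% and 10.7%, with overlapping intervals for both elements. The E-box was in 22.2% and 18.0%, and GAGAG was in 106 of the 559 bound pairs (interval 15.8 to 22.5%) and 21.3% of those with no peak (interval 19.3 to 23.4), so the low share of GAGAG was found at pairs with no peak too. The DRE contains ATCGAT and CGATA, so those shorter matches are not separate evidence.

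Matches to Motif 7, the DRE and the Motif 1 core lay mostly near the starts. Of the Motif 7 matches at head-to-head members, 74.6% were within 50 bp of a start, with a median of 23 bp, and the median distance from the summit to the nearest match was 78 bp. DRE matches had a median of 27.5 bp from a start and Motif 1 core matches 23.5 bp. Of the GAGAG matches 36.4% were within 50 bp of a start, with a median of 75 bp. TATAAA matches were farther still, at a median of 107.5 bp from the nearer start, and 80.5% of them lay between the starts. TATAAA was in 53.9% of members and 43.7% of one-strand peaks, but the middle of these stretches is rich in A and T, as in the printed CG13390/CG17294 stretch. Within 50 bp of the midpoint of pairs 200 to 300 bp apart, the median GC content was 24.8% in bound pairs (quartiles 21.8 and 28.7) and 27.7% in pairs with no peak (quartiles 22.8 and 34.2).

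**Figure D5:**
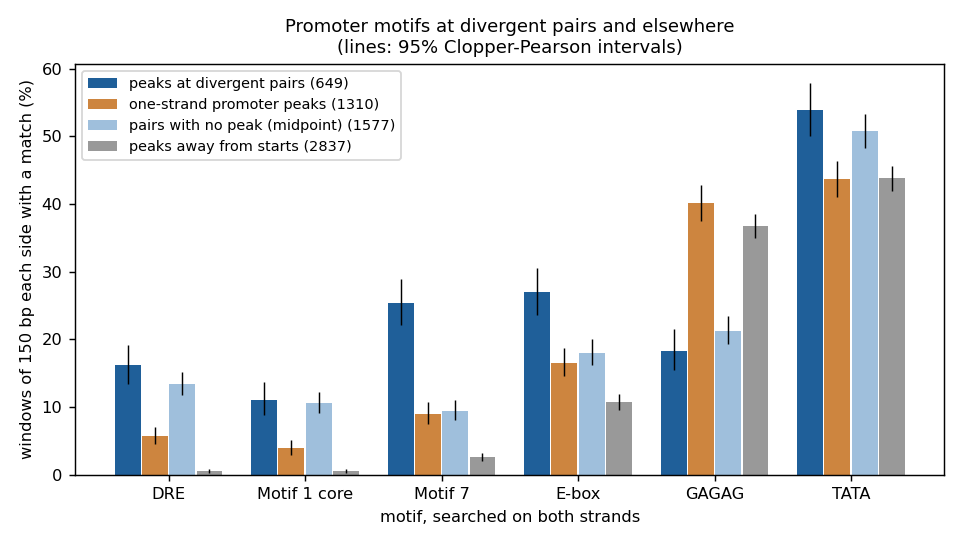
Bars give the percent of windows, 150 bp to each side, with at least 1 match to each motif, for members, one-strand promoter peaks, annotated pairs with no peak and peaks away from starts, with 95% Clopper-Pearson intervals as lines. Motif 7 is at 25.4% in members and below 10% in the other groups, the DRE is at 16.2% in members and 13.4% in pairs with no peak, and GAGAG is lower in members than in one-strand promoter peaks. Windows of pairs with no peak are centred on the midpoint and miss the starts of pairs over 300 bp apart. Among such pairs 200 to 300 bp apart Motif 7 is at 17.3%.

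Signal was also compared between members with and without a motif. The median percentile was 62.9 with Motif 7 and 60.2 without it, but 57.1 and 58.7 by the signal of replicate 1. It was 66.8 with the E-box and 59.0 without it, and 56.5 with the DRE and 62.5 without it. Members with the Motif 1 core were weaker, at 50.4 against 62.3, and each replicate's signal gave the same order, with 42.1 against 59.2 in replicate 1 and 55.3 against 64.3 in replicate 2.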

How the data were processed

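The authors deposited peak lists on dm6, made per the file headers and notes from both replicates together or from a single replicate, with a control and an irreproducible discovery rate threshold. No source used here gives the aligner or the peak caller, and the control itself was not analysed. The deposited signal, the 7th column, is the authors' value per peak. It describes and ranks peaks within a list and is not normalized between lists. Depth per sample is not known from the lists, so precision rests on numbers of peaks.

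Summits were compared with all transcript starts of Ensembl release 115, and sequence came from the NCBI genome of the same assembly. Replicate signals are those of the strongest overlapping candidate peak in each replicate's ranked list. Chromatin was sonicated to 200 to 800 bp, per the labels, so a summit is less exact than a base. Motif 6 and Motif 7 are degenerate consensus words, and each match is a description. The software was Python (3.11.15) with scipy (1.17.1) for intervals, pandas (2.3.3) and numpy (2.4.6) for tables and matplotlib (3.10.9) for plots, and the rule was tested on simulated summits.

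Nothing was tested for significance, since a single group of 2 replicates gives no contrast. Named pairs were the strongest members in both replicates, the extremes of spacing, the overlapping and multigene members, those at the 500 bp limit and the strongest of each gene list, of which the report gives a selection. The members, the 25 gene lists and the motifs were chosen with earlier results of these data known. Wrong name matches were removed from the lists after the files were seen, as were renamed symbols replaced. The last 4 printed stretches, the weak second peaks, the comparison at equal distance to a start, the pairs at equal spacing and the base content were chosen after seeing the data.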

Additional observations from a re-analysis of the deposited data

How the results depend on the processing

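Of 56 alternative values, 25 moved by less than the spread between replicates (1 SD, n = 2; for recovery, by less than the counting interval), 30 moved by more and 1 changed sign. For the share of pairs bound that spread is 0, since both replicates gave 444 pairs, so any difference counted as a move. With only peaks at or above the median signal of 86.2, members were 36.6% of promoter peaks, the median spacing was 274 bp, 15.7% of annotated pairs were bound, 91.2% of members were recovered in both replicates, and the signal difference from one-strand peaks was -0.438 percentile points. That last value compares signals after selecting on signal and says nothing of the stronger peaks in the whole list. With a window of 250 bp around starts, members were 26.7% of promoter peaks, with a median spacing of 244 bp, a signal difference of 17.3 points and 16.5% of pairs bound. With 1000 bp the values were 35.4%, 333 bp, 2.01 points and 30.4%, the summit was between the starts at 79.6%, and the DRE was in 14.3%. With the most 5′ start of each gene only, members were 38.7% of promoter peaks, the summit was between the starts at 78.0%, the spacing was 276 bp, the signal difference 9.17 points and the DRE share 16.9%. With noncoding genes included the signal difference was 5.80 points. With the strongest member of each pair only, an alternative added after seeing the data, it was 9.64 points. The other thresholded list gave 25.6% of pairs bound, and any overlap of a peak with the stretch between the starts gave 27.8%. Within 75 bp of the summit the DRE was in 5.08% of members.

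Without 1 replicate, members were 33.4% to 36.0% of promoter peaks, the summit was between the starts at 80.8% to 84.7%, the spacing was 284 to 288 bp, the signal difference was 5.20 to 6.09 points, the DRE share was 14.9% to 15.8%, and 19.8% of pairs were bound in either case.

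Read depth is not in the lists, and an absent peak is one not called here, which does not show that Ada2b is absent. A start annotated wrongly moves the spacing and the place of a summit. Sonicated fragments are as wide as most of these pairs, so a summit between close starts cannot be assigned to either promoter. Peaks of 1 pair share their libraries and, at times, their candidate peak.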

Other observations

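The short words with the largest excess in bound pairs consisted of A and T rather than of core promoter motifs. All 8192 words of 7 letters, each counted with its reverse complement, were compared between windows reaching 150 bp to each side of the midpoints of the 559 bound pairs and of the 1577 pairs with no peak, a comparison chosen after seeing the data. The word with the largest difference was AAATTAA, found in 42.6% of bound pairs and 29.8% of pairs with no peak. It was in 38.1% of members and 27.2% of one-strand promoter peaks. TTAATAA followed, with 31.1% and 20.4%, and AATAATT, with 36.1% and 25.4%. The 20 words with the largest difference consisted only of A and T. These words overlap one another and follow the base content, so they are not separate observations. Within 50 bp of the midpoint, the median GC content was lower in bound pairs in each spacing class over 100 bp. At 1 to 100 bp it was 45.5% in bound pairs and 43.6% in pairs with no peak. The pairs were not matched for spacing in the comparison of words, and how much of the excess spacing sets was not tested.

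Pairs with more than 1 summit were most numerous in the widest class. Counting summits within 500 bp of either start, 606 annotated pairs had 1 summit and 57 had more, and 29 of the 57 had starts more than 500 bp apart. That was 29 of 550 pairs in the widest class, against 13 of 568 at 300 to 500 bp and 10 of 467 at 200 to 300 bp. At 100 to 200 bp it was 2 of 307 and at 1 to 100 bp 3 of 348. The region searched grows with the spacing, so the classes do not cover equal lengths.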
